A study of Equus asinus with 12 samples.

Results

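ZNF24 (locus MSTRG.16939) is 1 of the 27084 loci listed in this donkey muscle RNA-seq table, and it is the only row with that name. It was selected on its FPKM values in these same libraries, because its level crossed over between strains and muscles, so those values in those groups are given as a description, with no test. The 12 libraries come from Dezhou donkeys (Equus asinus) of the Sanfen and Wutou strains, all 24 months old. Longissimus dorsi, a back muscle, and gluteal muscle, a hip muscle, each gave 3 libraries in each strain, which makes 4 groups. The series' text counts 6 donkeys for the 12 libraries, and no label links a library to an animal. Libraries of different muscles may thus come from the same donkeys, and the fit below, with libraries taken as unpaired, does not allow for it. The spread between libraries may also be partly technical. No treatment, transgene or deletion is named for any group.

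ZNF24 encodes a DNA-binding protein with an N-terminal SCAN domain, through which such proteins pair with each other, and C2H2 zinc fingers that read DNA. It is known as a repressor of transcription of VEGFA, the main growth factor of blood vessels, and as an activator of CTNNB1, which encodes beta-catenin of the Wnt pathway. In mice the gene is needed for embryonic development and for myelination in the brain. The deposited table gives its row the terms negative regulation of transcription and myelination, the pathway term neurotrophin signaling, and 2 reference transcripts.

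In longissimus muscle ZNF24 was low in Sanfen and high in Wutou, and in gluteal muscle it was high in Sanfen and low in Wutou. The 3 Sanfen longissimus libraries measured 0.558, 0.468 and 0.572 FPKM (fragments counted, scaled to transcript length and library depth). The 3 Sanfen gluteal libraries measured 3.82, 3.49 and 3.51 FPKM. In Wutou the longissimus libraries measured 3.80, 2.18 and 3.10 FPKM, and the gluteal ones 1.07, 0.575 and 0.734. The 6 libraries of Sanfen gluteal and Wutou longissimus muscle thus lay above the other 6, without overlap: the lowest of the high libraries stood at 2.18 FPKM and the highest of the low ones at 1.07, a ratio of 2.03 across the gap.

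Group means were 3.61 ± 0.183 FPKM in Sanfen gluteal (mean ± SD, n = 3 in each group here and below), 3.03 ± 0.815 in Wutou longissimus, 0.794 ± 0.255 in Wutou gluteal and 0.533 ± 0.0567 in Sanfen longissimus muscle. The 2 high groups overlapped, and their difference of 0.581 FPKM was below the SD of Wutou longissimus. The 2 low groups were adjacent, with the lowest Wutou gluteal library at 0.575 and the highest Sanfen longissimus library at 0.572 FPKM, and after median-of-ratios rescaling, a correction for library composition, they overlapped. Their difference of 0.262 FPKM was about as large as the SD of Wutou gluteal muscle. In order of level, then, the neighbours within a level were not clearly apart, while the step between the levels, 2.23 FPKM from Wutou gluteal to Wutou longissimus muscle, was larger than the SD of every group. The ratio of means between muscles was 6.77 in Sanfen, gluteal over longissimus, and 3.81 in Wutou, longissimus over gluteal. Between strains it was 5.68 in longissimus muscle, Wutou over Sanfen, and 4.54 in gluteal muscle, Sanfen over Wutou.

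**Figure D1:**
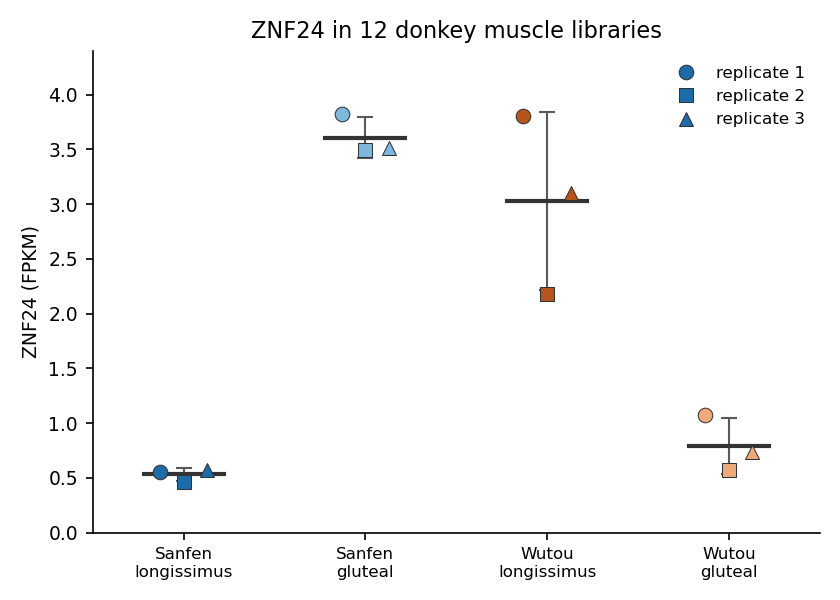
ZNF24 level in FPKM (vertical axis, from 0) in each library of the 4 groups (horizontal axis), with 1 symbol per replicate number, the mean of each group as a bar and 1 SD as whiskers. The 6 libraries of Sanfen gluteal and Wutou longissimus muscle lie at 2.18 FPKM or more and the other 6 at 1.07 or less.

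The relative spread of ZNF24 was smaller in the Sanfen strain. Its coefficient of variation was 10.6% in Sanfen longissimus and 5.07% in Sanfen gluteal muscle, against 26.9% in Wutou longissimus and 32.1% in Wutou gluteal muscle. Replicate 1 was the highest of its group in Wutou longissimus, at 3.80 FPKM, in Wutou gluteal, at 1.07, and in Sanfen gluteal muscle, at 3.82. In Sanfen longissimus muscle it was not. Between libraries with the same replicate number the gluteal to longissimus ratio in Sanfen was 6.84, 7.47 and 6.14, and the longissimus to gluteal ratio in Wutou was 3.54, 3.79 and 4.22.

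On the log2(FPKM + 1) scale, on which all tests were run and which draws low values together, ZNF24 differed by 1.59 (SE 0.16) between gluteal and longissimus muscle in Sanfen and by -1.16 (SE 0.16) in Wutou. Wutou minus Sanfen was 1.37 in longissimus and -1.37 in gluteal muscle, with the same SE. The crossover difference, which is gluteal minus longissimus in Sanfen less gluteal minus longissimus in Wutou, was 2.74 (SE 0.23). Averaged over the strains, gluteal minus longissimus was 0.22 (SE 0.12), and averaged over the muscles Wutou minus Sanfen was 0.0022 (SE 0.12). An average over strains or over muscles therefore holds little of the difference. With a pseudocount of 0.1 in place of 1, the crossover difference was 4.36.

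ZNF24 was a low to middling transcript. Tests covered the 12408 loci with 3 or more libraries at 1 FPKM or above. Of these, between 58.8% and 74.7% lay below it in each of the 6 high libraries. In the 3 Sanfen longissimus libraries 8.63%, 4.64% and 7.32% lay below it, and in the 3 Wutou gluteal libraries 25.8%, 7.89% and 13.1%. Reads per library are unknown and low values showed no common step between libraries (the most frequent ratio held 1.70% to 2.86% of those compared), so no counting interval can be given for a level near 0.5 FPKM. Summed FPKM ran from 214564 to 319767 per library. Each of the 19 skeletal muscle markers with a row, of 20 listed, was tested, and their summed level was 41708 FPKM or more in every library.

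The crossover difference was compared across all tested loci with limma, a linear model with moderated variances, with libraries taken as unpaired. A call means that the muscle difference differed between strains, and not that it had opposite directions in them. After Benjamini-Hochberg adjustment over 12408 loci, 0 loci other than ZNF24 passed at 0.05. The 1 call in the whole fit (0.00806%) was ZNF24 itself, which its selection fixes, so nothing is read from it. In the same fit 322 loci (2.60%) had an unadjusted p under 0.05, of which 219 were higher in Sanfen gluteal and Wutou longissimus muscle (1.76%) and 103 lower (0.830%). COMMD1, which regulates copper handling and NF-kB signaling, came next with a crossover difference of 1.77 (SE 0.25, adjusted p = 0.0798). COMMD1 names 2 loci in the table, of which this is 1. COMMD1 was followed by BTBD9, which encodes a BTB domain protein, at -1.20 (SE 0.19, adjusted p = 0.20), and KIAA0513 at 1.12 (SE 0.20, adjusted p = 0.306). The muscles of KIAA0513 lay apart in Wutou, at 2.76 ± 0.311 FPKM in longissimus and 0.918 ± 0.118 in gluteal muscle. In Sanfen they overlapped, at 1.39 ± 0.269 and 1.66 ± 0.338 FPKM, so KIAA0513 did not cross over as ZNF24 did. COMMD1 passed with quantile normalization or with a random block for the replicate number.

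ZNF24 did not have the widest crossover difference in the table. In 20 loci it was wider in absolute size, up to 5.62, but the residual SD within groups of these loci ran from 0.80 to 5.36 on the log2 scale, against 0.19 for ZNF24 and a median of 0.27 over all tested loci. STBD1, which encodes a glycogen-binding protein of membranes and is described for its values, was the widest of those higher in the same groups as ZNF24, at 5.53 (SE 1.0, adjusted p = 0.306). In Sanfen STBD1 measured 0.579, 0.263 and 0.770 FPKM in longissimus against 0.715, 17.8 and 18.1 in gluteal muscle, and in Wutou 12.9, 15.9 and 13.8 in longissimus and 0.518, 0.670 and 1.41 in gluteal muscle. It thus lay in 2 levels, and 11 of its 12 libraries were on the side where ZNF24 was, the exception being the first Sanfen gluteal library. Without that library 4 loci other than ZNF24 passed, STBD1 among them.

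**Figure D2:**
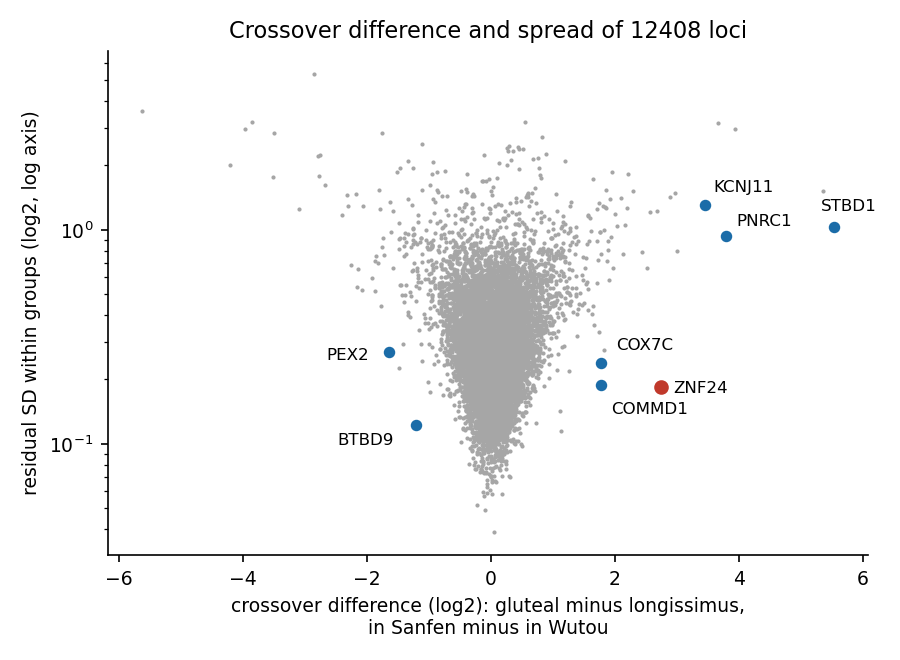
Crossover difference of the 12408 tested loci (horizontal axis, log2 scale) against the residual SD within groups (vertical axis, log2 scale, logarithmic axis), with 1 point per locus, ZNF24 in red and other named loci in blue. ZNF24 lies at 2.74 with a residual SD of 0.19, and the named loci farther to the right, STBD1, PNRC1 and KCNJ11, lie higher on the axis of spread.

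A locus was said to follow ZNF24 when its 6 libraries of Sanfen gluteal and Wutou longissimus muscle all lay above the other 6, and to oppose it when they all lay below. With ZNF24 itself counted, 12 of the 12408 tested loci followed (0.0967%) and 4 opposed (0.0322%). These are descriptions of the members found by that rule, and 0 of the loci other than ZNF24 passed the crossover test. With quantile normalization 6 loci followed, all 6 among these 12, and with median-of-ratios rescaling 6 followed, 5 of them among these 12.

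The follower most like ZNF24 was COX7C, a small subunit of cytochrome c oxidase, the last complex of the respiratory chain. COX7C measured 83.5, 52.1 and 78.0 FPKM in longissimus against 198, 207 and 158 in gluteal muscle of Sanfen, and 195, 157 and 143 in longissimus and 129, 127 and 120.2 in gluteal muscle of Wutou. Its 2 low groups were not level with each other, since every Wutou gluteal library lay above every Sanfen longissimus one. The crossover difference was 1.78 (SE 0.33, adjusted p = 0.306).

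In Sanfen COMMD1 measured 2.90, 2.80 and 2.62 FPKM in longissimus against 10.0, 9.99 and 7.35 in gluteal muscle, and in Wutou 4.72, 6.44 and 4.32 in longissimus and 3.81, 4.20 and 3.27 in gluteal muscle. The gap between muscles was thus wide in Sanfen and narrow in Wutou, where 4.32 and 4.20 FPKM were the nearest values. ZNF24 by contrast was separated by more than 1 FPKM in each strain.

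Another 2 followers encode subunits of complex I, the first enzyme of the respiratory chain. NDUFA7 measured 33.1, 20.6 and 28.2 FPKM in longissimus against 41.9, 44.8 and 33.9 in gluteal muscle of Sanfen, and 41.3, 43.0 and 35.5 in longissimus and 26.5, 24.5 and 21.8 in gluteal muscle of Wutou. Its 2 high groups had almost the same mean, 40.2 ± 5.68 and 40.0 ± 3.93 FPKM. NDUFS8 measured 41.4, 46.2 and 47.3 FPKM in longissimus against 108, 62.2 and 57.3 in gluteal muscle of Sanfen, and 69.8, 70.9 and 57.6 in longissimus and 42.7, 45.7 and 55.6 in gluteal muscle of Wutou. The lowest high library of NDUFS8, at 57.3 FPKM, stood close to the highest low one, at 55.6.

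Because 3 of the 11 other followers belong to the respiratory chain, tested genes were counted by name, a list chosen after these values were seen. The names taken were NDUF with A, B, C, S or V and a number, COX4 to COX8, UQCR and ATP5. Other NDUF and COX names were left out. Genes of these names below the filter were not counted. Of 77 such tested genes, 69 had a positive crossover difference, with a median of 0.41, against 54.6% of all tested loci and a median of 0.03. Of them 0 passed in limma after adjustment, and 8 had an unadjusted p under 0.05, all in the direction of ZNF24 (1.76% of all tested loci). The 3 followers that prompted the list are among the 77 and among these 8, so their part of both counts was fixed in advance. Summed over the list, Sanfen longissimus libraries held 3496 to 5175 FPKM, Sanfen gluteal 4817 to 6858, Wutou longissimus 4932 to 5580 and Wutou gluteal 4544 to 5976. The groups overlapped in these sums. The lowest value, 3496 FPKM, was that of the second Sanfen longissimus library, and without it 57 of the 77 were positive with a median of 0.26. With quantile normalization, an alternative for this list chosen after seeing the data, 62 were positive with a median of 0.23, against 50.04% of all tested loci.

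The remaining followers were low or middling transcripts, with group means of 8.0 FPKM or less. USE1, which encodes a SNARE protein of transport from the Golgi to the endoplasmic reticulum, measured 3.08 FPKM or more in its 6 high libraries and 3.02 or less in the others. PAQR7, a membrane progestin receptor, averaged 1.76 ± 0.451 FPKM in Sanfen gluteal and 1.76 ± 0.144 in Wutou longissimus muscle, against 0.929 ± 0.493 in Sanfen longissimus and 0.907 ± 0.349 in Wutou gluteal muscle. SERTAD3, a nuclear cofactor of transcription, averaged 1.54 ± 0.534 and 1.31 ± 0.198 FPKM in the high groups and 0.569 ± 0.254 and 0.773 ± 0.216 in the low ones, in the same order. UBL7, C16H1orf52 and assembled loci that carry the names NIPBL, the loader of cohesin, and JARID2, a cofactor of the Polycomb complex, complete the set, with crossover differences of 0.48, 0.81, 0.85 and 1.09. JARID2 names 9 loci in the table and NIPBL 2, so these values are those of 1 assembled locus each and not of the whole gene.

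Among the 4 opposing loci PEX2 had the lowest correlation with ZNF24. PEX2 encodes a membrane ubiquitin ligase of peroxisomes that recycles the import receptor. In Sanfen it measured 1.63, 1.16 and 2.11 FPKM in longissimus against 0.342, 0.502 and 0.362 in gluteal muscle, and in Wutou 0.275, 0.161 and 1.08 in longissimus and 1.28, 1.49 and 1.58 in gluteal muscle (crossover difference -1.65, SE 0.31, adjusted p = 0.306). The third Wutou longissimus library, at 1.08 FPKM, was close to the lowest Sanfen longissimus one, at 1.16. Also opposing were LOC106830013, listed at 0 in 2 Sanfen gluteal libraries, and the unnamed locus MSTRG.8316.

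**Figure D3:**
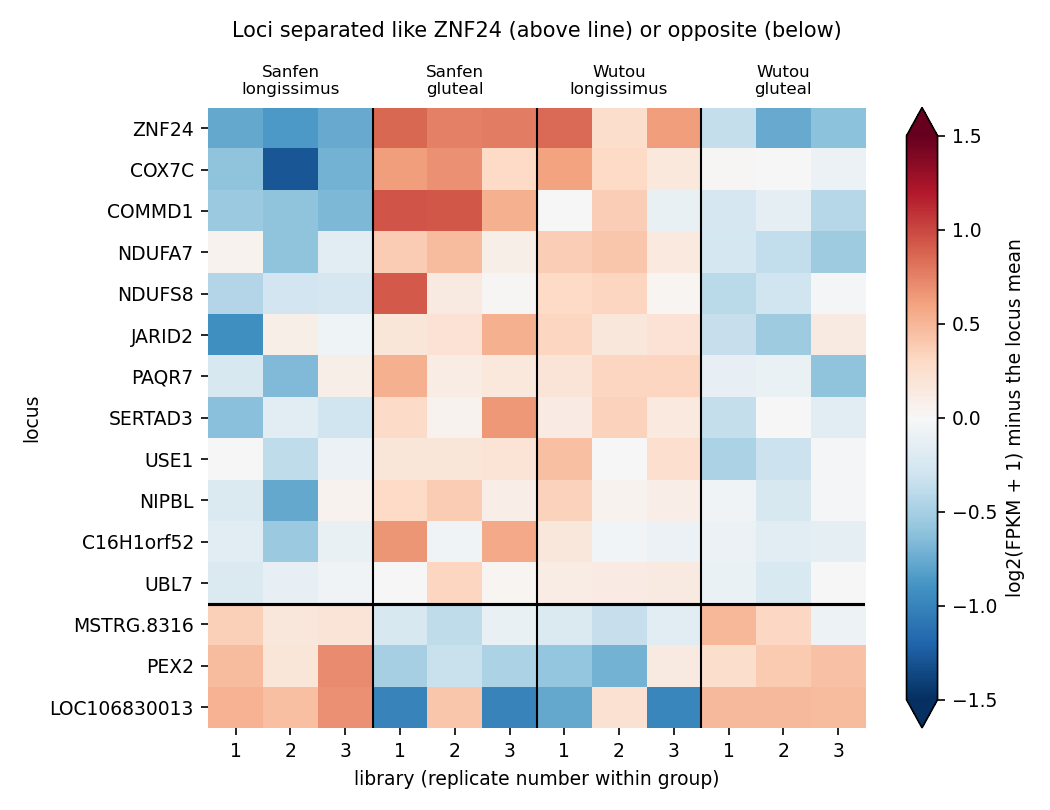
Level of the 12 loci that followed ZNF24 (above the line, ZNF24 first) and 3 of the 4 that opposed it (below) in each of the 12 libraries (columns, by group and replicate number), as log2(FPKM + 1) minus the locus mean in colour. By the rule, a follower's 6 libraries of Sanfen gluteal and Wutou longissimus muscle lie above its other 6, and those of the opposing loci below.

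Likeness to ZNF24 was also measured by Pearson's r on log2(FPKM + 1) over the 12 libraries, which share strains, muscles and possibly donkeys. Since ZNF24 lies in 2 separated levels, r is used here to rank loci, with no test, and r within each level of 6 libraries is given beside it. Over the other 12407 loci r ran from -0.844 to 0.845, with a median of 0.0538, and 7 loci had an r of at least 0.8. The 8 loci with a symbol and the highest r were COX7C (0.845, Spearman's rho 0.937), COMMD1 (0.828, rho 0.895), NDUFA7 (0.828, rho 0.734), GEMIN2 (0.805), USE1 (0.802), an assembled locus named MBD5 (0.802), RNF25 (0.799) and TRMT12 (0.792).

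Within the levels the order of the libraries was shared by few of these. RNF25, a RING ubiquitin ligase, had an r of 0.825 within the 6 high and 0.889 within the 6 low libraries, although its 6 high libraries were not all above its 6 low ones, at 7.45 ± 0.310 FPKM in Sanfen gluteal, 6.34 ± 0.715 in Wutou longissimus, 6.25 ± 0.597 in Wutou gluteal and 5.10 ± 0.227 in Sanfen longissimus muscle. The 2 Wutou groups overlapped, while Sanfen gluteal muscle lay above and Sanfen longissimus muscle below every other library. COX7C had 0.585 and 0.698, and GEMIN2, which helps to assemble the spliceosome's small ribonucleoproteins, 0.450 and 0.760. NDUFA7 had -0.119 and 0.0757. TRMT12, an enzyme of tRNA modification, had 0.697 within the high and -0.492 within the low libraries. It measured 2.27, 1.87 and 1.38 FPKM in Sanfen gluteal and 1.72, 0.570 and 0.181 in Wutou longissimus muscle, against 0.452 or less elsewhere.

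The 8 loci with a symbol and the lowest r were PEX2 (-0.844), GRASP (-0.777), an assembled locus named C25H1orf21 (-0.775), RNF103 (-0.765), SHISA5 (-0.761), BTBD9 (-0.757), B4GALT5 (-0.751) and an assembled locus named SWT1 (-0.747). RNF103, a ubiquitin ligase of the endoplasmic reticulum, averaged 5.55 ± 0.922 FPKM in Sanfen longissimus and 5.56 ± 2.54 in Wutou gluteal muscle against 1.73 ± 1.40 in Sanfen gluteal and 2.84 ± 1.41 in Wutou longissimus muscle, with overlap. In Sanfen BTBD9 measured 2.04, 3.01 and 2.52 FPKM in longissimus against 1.17, 1.10 and 1.08 in gluteal muscle, and in Wutou 0.609, 0.795 and 0.583 in longissimus and 1.41, 1.14 and 1.38 in gluteal muscle. The muscles did not overlap in either strain and differed in opposite directions, but the second Wutou gluteal library, at 1.14, lay below the first Sanfen gluteal one, at 1.17, so BTBD9 was not among the opposing loci. BTBD9 names 8 loci in the table, of which this is 1. KIAA0513 had an r of 0.648. Without the 2 libraries farthest from the median of ZNF24, the first of Sanfen gluteal and the first of Wutou longissimus muscle, r was 0.794 for COX7C, 0.865 for COMMD1 and -0.785 for PEX2.

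None of the annotated genes next to ZNF24 that have a row was split into the same 2 sets of 6 libraries. Neighbours were taken from the RefSeq annotation of the donkey assembly EquAss-T2T_v2, which served for gene order only because no source used here names the build of the deposited table. Of the 4 annotated genes on each side, 6 have a row in the table, with 7 loci. ZNF396, a SCAN domain gene on one side, measured 0.233 to 0.660 FPKM over the 12 libraries, and beyond it came INO80C, a subunit of the INO80 chromatin remodeller, and GALNT1, which starts mucin-type glycosylation. INO80C measured 0.458, 0.488 and 0.521 FPKM in longissimus against 1.13, 0.737 and 0.704 in gluteal muscle of Sanfen, and 0.501, 0.955 and 0.513 in longissimus and 0.456, 0.400 and 0.568 in gluteal muscle of Wutou. It thus lay higher in Sanfen gluteal than in Sanfen longissimus muscle without overlap, while the muscles overlapped in Wutou, and it did not reach the level needed for the test. GALNT1 averaged 2.12 ± 0.0438, 2.52 ± 0.258, 1.80 ± 0.205 and 2.26 ± 0.241 FPKM in Sanfen longissimus, Sanfen gluteal, Wutou longissimus and Wutou gluteal muscle, with a crossover difference of -0.04 (SE 0.17).

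On the other side lay ZNF397, ZSCAN30 and MAPRE2. In Sanfen ZNF397, another SCAN domain gene, measured 0.969, 0.768 and 1.55 FPKM in longissimus against 1.36, 1.04 and 1.33 in gluteal muscle, and in Wutou 0.690, 0.941 and 0.898 in longissimus and 1.90, 1.33 and 1.28 in gluteal muscle. In Wutou it was higher in gluteal muscle without overlap, which is the direction opposite to ZNF24, and its crossover difference was -0.32 (SE 0.24). ZSCAN30 stayed at 0.555 FPKM or less in every library, and the reference locus of MAPRE2, a microtubule end-binding protein, had a crossover difference of -0.04 (SE 0.27). A second, assembled locus named MAPRE2 had 0.88 (SE 0.69, adjusted p = 0.9998), in the direction of ZNF24 but with overlapping groups, from 0.132 to 4.96 FPKM over the libraries. These zinc finger genes are related in sequence, and no source used here says how the counting assigned reads that fit several of them.

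**Figure D4:**
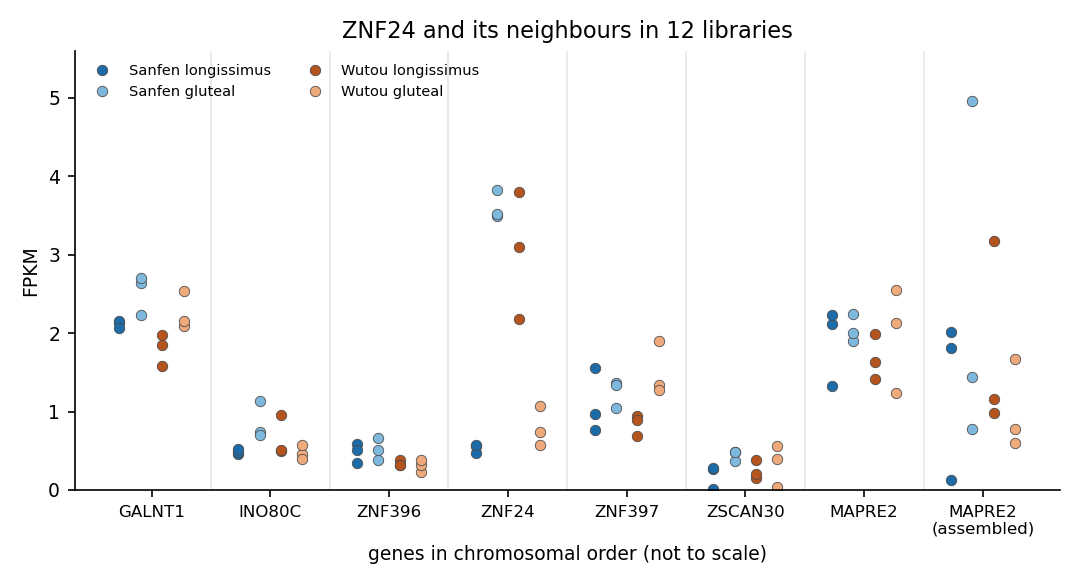
FPKM (vertical axis, from 0) of ZNF24 and of the 7 loci of its annotated neighbours, in chromosomal order and not to scale, with 1 point per library coloured by group. None of the 7 neighbouring loci is split into the same 6 and 6 libraries as ZNF24, and the highest INO80C library, at 1.13 FPKM, is from Sanfen gluteal muscle.

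The wider family was described from a list of 51 other SCAN domain genes. Of these 43 have a row in the table, 21 of them below 1 FPKM in every library, and 19 were tested. Of the 19 tested, 8 had a positive and 11 a negative crossover difference, with a median of -0.02 against 0.03 over all tested loci, and 0 passed in limma after adjustment. ZNF213 was the 1 member with an unadjusted p under 0.05 (2.60% of all loci), at 0.989 ± 0.449 FPKM in longissimus against 1.12 ± 0.131 in gluteal muscle of Sanfen, and 2.34 ± 0.794 in longissimus and 1.20 ± 0.0379 in gluteal muscle of Wutou. It was thus high in Wutou longissimus muscle alone and did not follow ZNF24 in Sanfen. Among the 142 other tested genes named ZNF, ZSCAN or ZKSCAN, counted after the values were seen, 71 had a positive and 71 a negative crossover difference, with a median of -0.01. In these 142 genes 0 passed and 6 had an unadjusted p under 0.05 (2.60% of all tested loci). Of them 0 followed or opposed ZNF24, as did 0.0967% and 0.0322% of all tested loci.

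VEGF ligands and receptors, the vessel growth system that ZNF24 is known to restrain, were next compared. Of 9 tested members 4 had a positive and 5 a negative crossover difference (median -0.07). In limma 0 passed after adjustment and 0 had an unadjusted p under 0.05, against 2.60% of all tested loci. In a list this short a count of 0 is near that share. VEGFA names 2 loci, of which that with the higher mean is given. In Sanfen VEGFA measured 16.7, 10.7 and 4.49 FPKM in longissimus against 10.6, 5.89 and 4.58 in gluteal muscle, and in Wutou 4.12, 7.2 and 4.93 in longissimus and 11.3, 6.23 and 6.60 in gluteal muscle. The means lay lower where ZNF24 was high, at 7.01 ± 3.15 in Sanfen gluteal and 5.42 ± 1.60 in Wutou longissimus against 10.6 ± 6.12 in Sanfen longissimus and 8.05 ± 2.84 in Wutou gluteal muscle. The groups overlapped, however, and the crossover difference of -0.93 (SE 0.58) did not pass (adjusted p = 0.9998).

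The receptors showed no common direction. KDR, the main signaling receptor of VEGFA, measured 4.55 ± 1.20 FPKM in longissimus against 5.81 ± 2.53 in gluteal muscle of Sanfen, and 3.84 ± 0.741 in longissimus and 5.15 ± 0.788 in gluteal muscle of Wutou. FLT4, the receptor of lymphatic vessels, had the smallest p of the list, with a crossover difference of 0.46 (SE 0.24, adjusted p = 0.9998), and the decoy-like receptor FLT1 had -0.40 (SE 0.44). FLT1 names 2 loci, of which this is 1. The ligand VEGFB had 0.09 (SE 0.39), and the coreceptor NRP1 -0.24 (SE 0.19). Markers of endothelial cells, 11 of 12 with a row and all tested, had 5 positive and 6 negative differences and a median of -0.0045. In limma 0 of them passed after adjustment or had an unadjusted p under 0.05 (2.60% of all tested loci), a count near that share in so short a list. Their summed level was 56.7 to 78.9 FPKM in Sanfen longissimus, 65.8 to 96.4 in Sanfen gluteal, 55.6 to 76.2 in Wutou longissimus and 55.9 to 101 in Wutou gluteal muscle, with overlap of all groups. In tissue RNA, fewer cells of a type and less RNA per cell cannot be told apart.

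CTNNB1, the beta-catenin gene that ZNF24 is known to activate, lay between 10.4 and 18 FPKM in every library. It measured 14.8, 15.5 and 13.4 FPKM in longissimus against 18, 17.0 and 13.1 in gluteal muscle of Sanfen, and 13.8, 14.8 and 14.9 in longissimus and 10.4, 14.7 and 15.1 in gluteal muscle of Wutou. The crossover difference was 0.24 (SE 0.27, adjusted p = 0.9998 in limma). An effect of ZNF24 on CTNNB1 was not tested. Of the 29 tested genes of the Wnt and beta-catenin list, 19 had a positive and 10 a negative difference (median 0.09). In limma 0 passed after adjustment or had an unadjusted p under 0.05 (2.60% of all tested loci), a count near that share in so short a list. MYC, a target of the pathway, had the smallest p, with a difference of -0.79 (SE 0.46, adjusted p = 0.9998) and means of 1.74 ± 0.831 and 1.58 ± 1.31 FPKM in Sanfen longissimus and Wutou gluteal muscle against 1.01 ± 0.340 and 0.848 ± 0.328 in Sanfen gluteal and Wutou longissimus muscle.

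**Figure D5:**
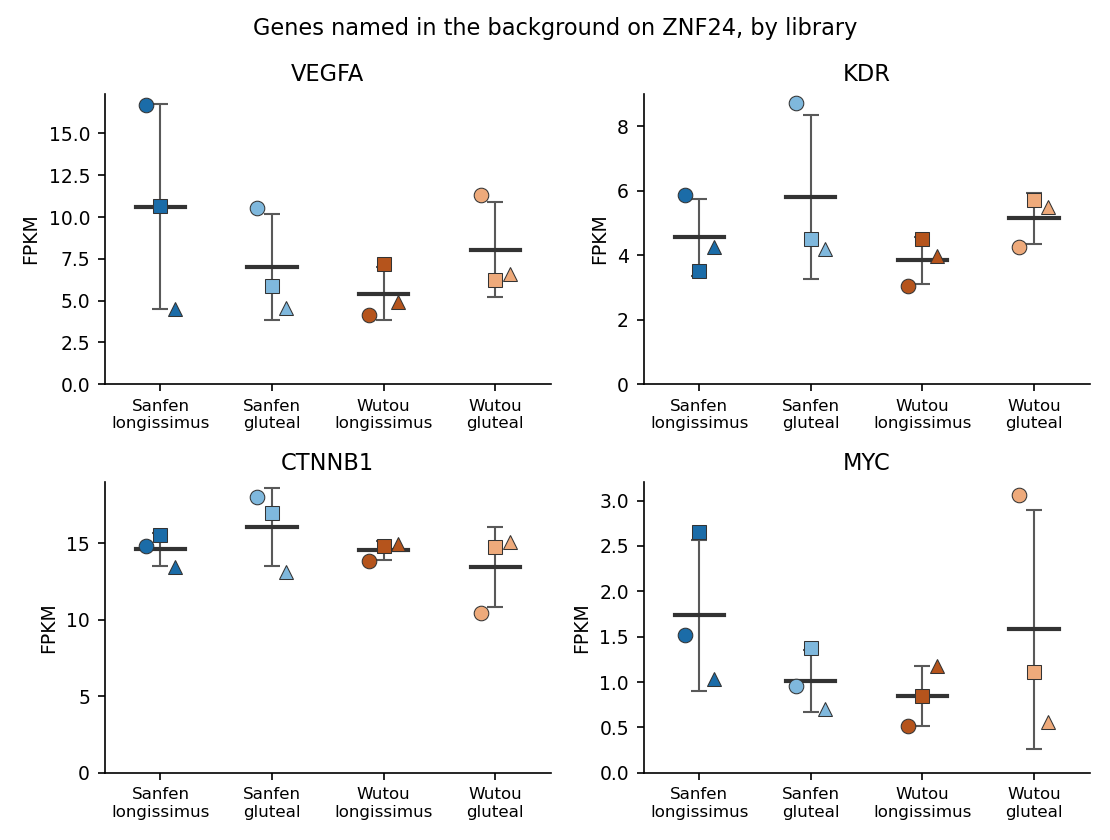
FPKM (vertical axes, from 0) of VEGFA, its receptor KDR, CTNNB1 and MYC in each library of the 4 groups, with 1 symbol per replicate number (circle 1, square 2, triangle 3), the group mean as a bar and 1 SD as whiskers. The groups overlap in all 4 genes, and CTNNB1 lies between 10.4 and 18 FPKM in every library.

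Cell cycle genes were mostly too low to test. Of 30 listed, 15 stayed below 1 FPKM in every library, among them the division genes MKI67, TOP2A and CDK1. Of the 12 tested, 7 had a positive and 5 a negative crossover difference (median 0.03). In limma 0 passed after adjustment or had an unadjusted p under 0.05 (2.60% of all tested loci), a count near that share in so short a list. CDKN2C, an inhibitor of cyclin-dependent kinases, had the smallest p (0.51, SE 0.38, adjusted p = 0.9998).

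Genes that carry the same terms as ZNF24 in the table were counted next. Of 17 tested genes with the term myelination 10 were positive and 7 negative (median 0.05), and of 147 tested genes with the term neurotrophin signaling 82 were positive and 65 negative (median 0.03). In the 2 sets together 0 passed in limma after adjustment, and 0 and 2 members had an unadjusted p under 0.05, against 2.60% of all loci. These 2 sets were read from the table after it was opened. Markers of Schwann cells and myelin, which stand for the nerves within muscle, had 5 tested members of 14 listed. CNP, an enzyme of myelin, measured 3.57 ± 0.697 FPKM in longissimus against 4.42 ± 0.498 in gluteal muscle of Sanfen, and 4.96 ± 0.175 in longissimus and 4.37 ± 0.921 in gluteal muscle of Wutou. The list's summed level was 13.8 to 20.8 FPKM in Sanfen longissimus, 16.6 to 26.2 in Sanfen gluteal, 10.9 to 15.4 in Wutou longissimus and 10.8 to 13.8 in Wutou gluteal muscle, and SOX10 and MAG stayed below 1 FPKM in every library.

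Markers of muscle and of other cell types were read for the same contrast. Of 19 tested skeletal muscle markers 14 were positive and 5 negative, with a median of 0.28 against 54.6% positive and a median of 0.03 over all tested loci, and 0 passed in limma after adjustment. TNNC1, the troponin C of slow fibres, was the 1 member of 19 with an unadjusted p under 0.05 (2.60% of all loci), at 748 ± 139.7 FPKM in longissimus against 1177 ± 556 in gluteal muscle of Sanfen, and 876 ± 325 in longissimus and 569.6 ± 61.5 in gluteal muscle of Wutou (difference 1.13, SE 0.49, adjusted p = 0.9998). Summed muscle markers ran from 42669 to 50623 FPKM in Sanfen longissimus, 45655 to 48331 in Sanfen gluteal, 49779 to 56439 in Wutou longissimus and 41708 to 48985 in Wutou gluteal muscle, and Wutou longissimus overlapped Sanfen longissimus alone. The part of muscle content in the level of ZNF24 was not tested.

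Satellite cell markers, those of the stem cells of muscle, had 7 tested members with 3 positive and 4 negative differences and a median of -0.08. MYF5, a transcription factor of these cells, had the 1 unadjusted p under 0.05 of the 7 (2.60% of all loci, 0.830% in its direction), with a difference of -0.95 (SE 0.33, adjusted p = 0.9998). In Sanfen it measured 1.02, 1.85 and 1.04 FPKM in longissimus against 0.605, 1.5 and 0.642 in gluteal muscle, and in Wutou 0.202, 0.0629 and 0.264 in longissimus and 1.21, 1.01 and 0.475 in gluteal muscle. Fibroblast markers had 5 positive and 5 negative differences among 10 tested, adipocyte markers 2 and 5 among 7, and immune markers 3 and 1 among 4. In these 3 lists 0 members passed in limma or had an unadjusted p under 0.05 (2.60% of all tested loci), a count near that share in such short lists. The immune markers PTPRC and CD3E stayed below 1 FPKM in every library, and no erythroid marker was high enough to test.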

How the data were processed

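The deposited values are FPKM per locus in 12 libraries, per the file headers, and cutadapt, Bowtie2 and TopHat2 are listed, with no version, in the submitters' processing notes. The genome build and the counting tool are not given in the sources used here, and no rescaling between libraries is recorded. Of 6221 loci named LOC, 3260 matched the RefSeq table of EquAss-T2T_v2 and 1069 of these now carry a symbol. The 12408 loci with 3 or more libraries at 1 FPKM or above were fitted on log2(FPKM + 1) in limma 3.58.1 (R 4.3.3), with 4 group means, 8 residual degrees of freedom, trended moderated variances and Benjamini-Hochberg adjustment. Where a gene names several loci, a list took the locus with the highest mean. COMMD1, BTBD9 and KIAA0513 were each given by the tested locus with the smallest crossover p.

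The gene, the lists and the rules were chosen with earlier results of these data known. Named by rule were the 8 loci with a symbol and the highest and the 8 with the lowest r, loci called, those of each list with the smallest p (4 at most) (any of the VEGF list, and CTNNB1), 4 annotated neighbours on each side, COMMD1, BTBD9 and KIAA0513. Loci that followed or opposed ZNF24, STBD1, PNRC1 and KCNJ11 were named after their values were seen. On simulated data the fit was tested with 200 of 12408 loci changed. The changed loci were drawn from those with a mean log2(FPKM + 1) above 1, and the noise was independent between libraries. At a crossover difference of 1, 2 and 3 on the log2 scale the fit recovered 7%, 78.5% and 90% of them, and called 1, 7 and 8 others. With 200 loci changed the adjustment is less strict than with few, so recovery in the data may be lower. Alternatives were other pseudocounts, filters and scalings, a replicate block and leaving out each library. No sequence is shown, and 1 of the 4 opposing loci is counted but not reported here. Figures used Python 3.11.15 and matplotlib 3.10.9.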

Additional observations from a re-analysis of the deposited data

Results flagged for a closer look

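In each locus given here the gluteal minus longissimus difference had opposite signs in the Sanfen and Wutou strains, with no overlap between the muscles in either strain. Only loci already picked for naming were searched, and no share over all tested loci was counted. For loci that followed or opposed ZNF24 the rule itself fixes this pattern, and TRMT12 and BTBD9 were among those picked for their r. The list is thus a description. Each value is the crossover difference on the log2(FPKM + 1) scale. For ZNF24 it was 2.74, a description, since the gene was chosen for it and its call in the fit is fixed by that choice. The other loci did not pass the limma test of this difference after adjustment over 12408 loci, with libraries taken as unpaired. COMMD1 passed with quantile normalization or a random replicate block.

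Loci that were higher in Sanfen gluteal and Wutou longissimus muscle, as ZNF24 was, included 3 subunits of the respiratory chain: COX7C at 1.78, NDUFA7 at 1.26 and NDUFS8 at 1.14. COMMD1 had 1.77 and the tRNA-modifying enzyme TRMT12 1.74. Smaller differences were those of PAQR7 (1.09), SERTAD3 (1.07), USE1 (0.86), C16H1orf52 (0.81) and UBL7 (0.48), and of the assembled loci named JARID2 (1.09) and NIPBL (0.85). Lower in the same groups were LOC106830013 (-2.07), PEX2 (-1.65), BTBD9 (-1.20) and the unnamed locus MSTRG.8316 (-0.98).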

How the results depend on the processing

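The crossover of ZNF24 kept its direction under each alternative that covered it. With a pseudocount of 0.1 its crossover difference was 4.36, gluteal minus longissimus was 2.55 in Sanfen and -1.81 in Wutou, and Wutou minus Sanfen was 2.27 in longissimus and -2.09 in gluteal muscle. Without each library in turn the crossover difference ran from 2.61 to 2.90. The limma count of 1 locus, ZNF24 itself, became 2 with quantile normalization (COMMD1 added), 2 of 27084 with no filter on low values (LRRIQ3 added), 0 of 3083 with a filter at an FPKM of 5, which ZNF24 did not reach, and 322 without adjustment. It ran from 1 to 5 without each library: 5 without the first of Sanfen gluteal muscle (STBD1, C8H6orf47, KCNJ11 and PIGC added) and 2 without the first of Wutou longissimus muscle (MED16 added). Several of these loci did not cross over as ZNF24 did. KCNJ11 was low in Wutou gluteal muscle (mean 1.49 FPKM) and in the left-out library (1.83). C8H6orf47 was listed at 0 in Sanfen longissimus muscle and the left-out library. PIGC was low in the other Sanfen gluteal libraries, at 0.135 and 0.474 FPKM. LRRIQ3 was above 0 in Sanfen longissimus muscle alone, at 0.143 FPKM or less.

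After each locus's group means were taken out of log2(FPKM + 1), the remainders of same-numbered libraries of the 2 muscles were correlated. The values were 0.246, 0.110 and 0.158 in Sanfen and 0.182, 0.165 and 0.0711 in Wutou. Every library correlated best with its own number, which is a hint from the data. The highest value between different numbers was 0.0126, in Wutou, below the lowest same-numbered one of 0.0711. That 1 same-numbered pair was under 0.1, and the numbers were not taken as pairs. The main fit took libraries as unpaired, so its SE and p values do not allow for pairs by number. With the replicate block as a fixed term 1 locus passed, and with a random replicate block, at a consensus correlation of 0.188, 2 did (COMMD1 added).

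The 12 followers became 6 with median-of-ratios rescaling, 6 with quantile normalization and 5 with a filter at an FPKM of 5, and 12 to 30 without each library. The count passed 1.5 times the first without any 1 library of Sanfen longissimus or Wutou longissimus, or replicate 3 of Sanfen gluteal or Wutou gluteal muscle. Of the 4 opposing loci 2 were shared with the 5 found with median-of-ratios rescaling and 2 with the 4 found with quantile normalization. They became 0 with a filter at an FPKM of 5, and 5 to 15 without each library, with 7 or more without any of 8 libraries: replicates 2 and 3 of Sanfen longissimus, 1 and 2 of Sanfen gluteal, 1 and 3 of Wutou longissimus and 2 and 3 of Wutou gluteal muscle. A rule over fewer libraries is easier to meet. Of the 8 highest and 8 lowest r, 3 and 6 were shared when ranked by Spearman's rho. With 3 libraries a group and unknown depth, small differences near the filter were not detectable.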
